A study of Arabidopsis thaliana with 6 samples.

Results

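The genes described here are 41 nuclear genes of Arabidopsis thaliana for the light-harvesting antennae, the photosystems and the photosynthetic electron transport chain, chosen by their locus identifiers from a table of 33532 genes. They comprise 17 antenna genes (13 LHCB genes of photosystem II and 4 LHCA genes of photosystem I), 18 photosystem genes (7 of photosystem II and 11 of photosystem I), and 6 genes for plastocyanin, the Rieske protein, ferredoxin and the plastid ATP synthase. All 41 were found, and all 41 reached the mean of 1 FPKM required of the 19035 genes that were tested. FPKM is the number of sequenced fragments of a gene relative to its transcript length and to the depth of the library, so levels of different genes can be compared per length.

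The study asked how the seedling transcriptome responds when mitochondrial translation is impaired. Wild-type Col-0 seedlings were kept on 1/2 MS plates with 5 µg/mL doxycycline (3 libraries) or without it (3 control libraries), in both cases for 10 days, and whole seedlings were sequenced. Doxycycline is a tetracycline that binds bacterial-type ribosomes, a kind that plastids hold as well as mitochondria. The design speaks of biological replicates but not of separate plates or harvests, so p-values measure the spread between these libraries, and no time of day of harvest is given in the sources used here.

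Light-harvesting chlorophyll a/b proteins bind most of the chlorophyll of the leaf and pass excitation energy to the reaction centres. Photosystem II splits water, plastoquinone, the cytochrome b6f complex and plastocyanin carry the electrons to photosystem I, and ferredoxin takes them on to NADPH, while ATP synthase uses the proton gradient built on the way. The reaction centre proteins are encoded in the plastid, whereas the antenna proteins and many peripheral subunits are encoded in the nucleus, where their transcription follows light, the circadian clock and the state of the plastid.

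The libraries held an estimated 18525000 to 21925000 fragments each. Over all tested genes the doxycycline libraries correlated at 0.988 to 0.992 with each other, while the controls correlated at 0.831 to 0.895. Control 1 lay closer to the doxycycline libraries (0.961 to 0.964) than to controls 2 and 3, which correlated with the doxycycline libraries at 0.827 to 0.856. Values are therefore given for each control, and results that rest on control 1 are given with and without it. Of 10 root, 3 shoot epidermis, 3 guard cell and 4 vascular marker genes, 0 were listed at 0 in any library, as whole seedlings would hold. In such bulk samples, fewer cells of a type and less RNA per cell cannot be told apart.

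**Figure D1:**
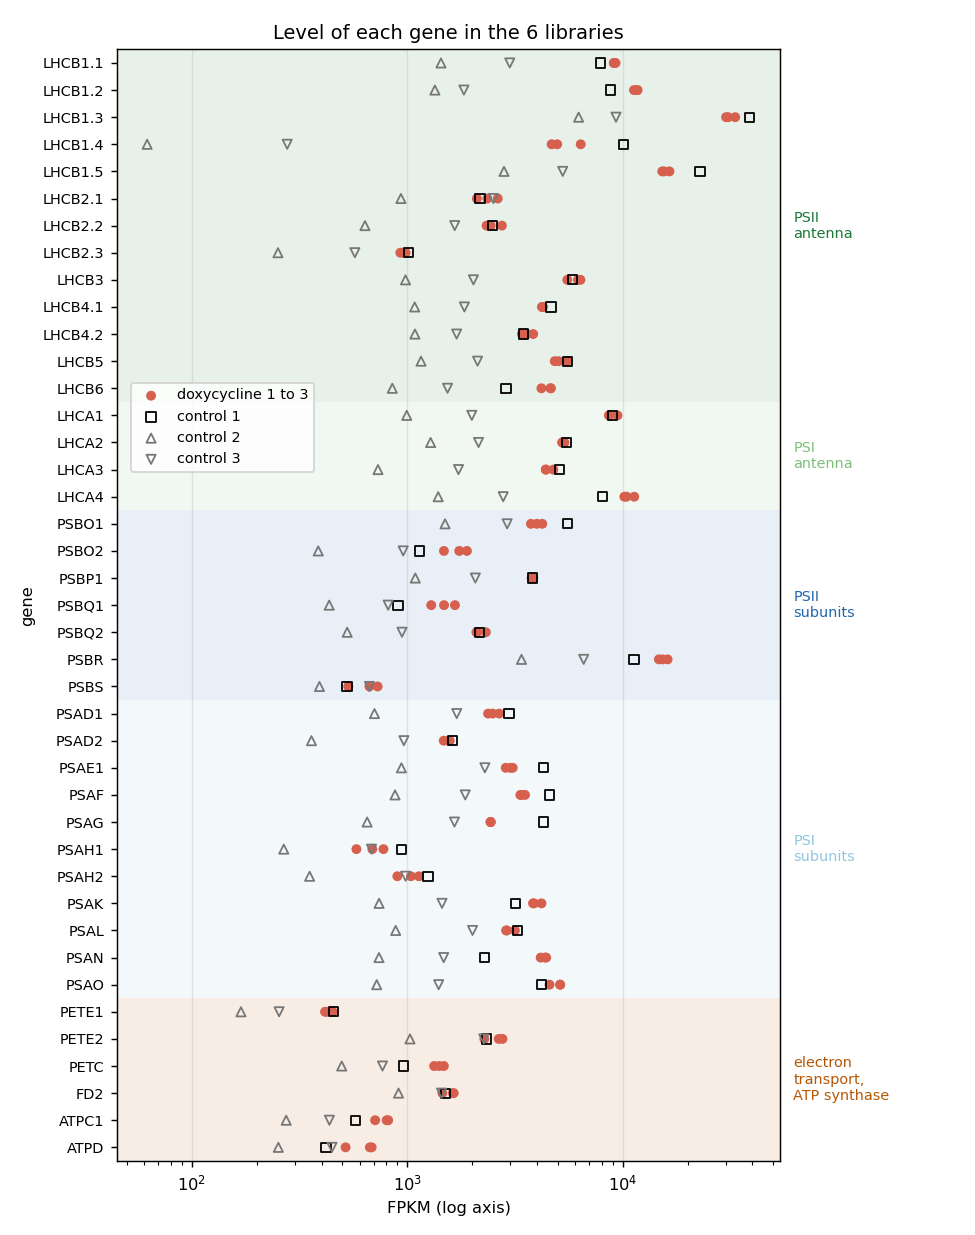
FPKM on a log axis (x) of each of the 41 genes (y, grouped by class), with 1 filled circle per doxycycline library and an open symbol for each control. Control 2 is the lowest control in all 41 genes, and the doxycycline libraries lie close together and near control 1.

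The 41 transcripts stood at similar levels in the doxycycline libraries and in control 1, and at lower levels in controls 2 and 3. Together they held 24.1%, 24.7% and 24.7% of the summed FPKM of all genes in doxycycline libraries 1 to 3, against 26.3% in control 1, 5.80% in control 2 and 10.8% in control 3. Every doxycycline library lay above control 2 in 41 of the 41 genes and above control 3 in 37, the exceptions being LHCB2.1, PSBS, PSAH1 and PSAH2. Above both of these controls lay 37 genes, where 15.9% of all tested genes did. The share of all genes above each of them alone was not counted. Against control 1 the order was mixed: every doxycycline library lay above it in 14 genes (34.1%, where 37.0% of all tested genes did) and below it in 18 (43.9%, where 36.9% of all tested genes did). Both shares lie near those of all genes. Within a gene the highest doxycycline library exceeded the lowest by a median of 1.11-fold and at most by 1.37-fold, while the highest control exceeded the lowest by a median of 4-fold (on FPKM + 1).

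**Figure D2:**
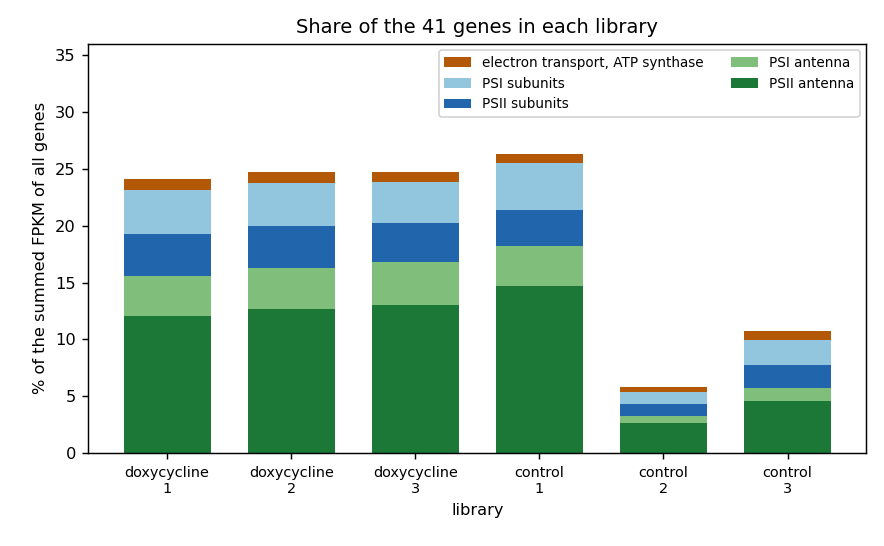
Stacked bars of the percentage of the summed FPKM of all genes (y) held by each class of the 41 genes in each library (x). The 3 doxycycline libraries (24.1% to 24.7%) and control 1 (26.3%) stand far above control 2 (5.80%) and control 3 (10.8%).

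With limma on log2(FPKM + 1) and Benjamini-Hochberg adjustment over all tested genes, 0 of the 41 genes and 0 of 19035 genes passed an adjusted p of 0.05, and limma with robust variance estimates also called 0. Adjusted p-values of the 41 genes ran from 0.139 to 0.697. At an unadjusted p under 0.05 there were 11 of the 41 (26.8%), all with higher doxycycline means, where 6.83% of all tested genes were higher at that level. The log2 difference, doxycycline minus control, was positive in 41 of 41 genes as deposited, where 5755 of the 19035 tested genes were positive. It was positive in 41 after median-of-ratios scaling and in 36 after quantile normalization, where LHCB2.1, PSBO1, PSAE1, PETE2 and FD2 turned negative. Its median was 0.97, where the median of all genes was -0.29. Relative to the median of all genes, that of the 41 lay 1.26 higher as deposited, 1.3 higher after median-of-ratios scaling and 0.49 higher after quantile normalization. In 13 genes (31.7%) the 3 doxycycline values lay above all 3 controls, where 9.59% of all tested genes did so, and in 0 genes did they lie below, where 25.7% of all tested genes did. Over all genes that split of 1825 above and 4889 below every control became 3430 and 3228 after median-of-ratios scaling.

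These 13 genes were LHCB1.1, LHCB1.2, LHCB6 and LHCA4 of the antennae, PSBO2, PSBQ1 and PSBR of photosystem II, PSAK, PSAN and PSAO of photosystem I, and PETC, ATPC1 and ATPD of electron transport and ATP synthesis. They thus came from each of the 5 classes. After quantile normalization LHCB1.1 and PSBR overlapped with the controls and LHCA2 lay above them, so that 12 genes lay above all controls and 2, PSBO1 and FD2, lay below all of them. On that scale 3315 of 19008 tested genes lay above every control and 3137 below.

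The calls depended on control 1. Without it, limma called 29 of the 41 genes higher with doxycycline (70.7%, where 9.77% of all tested genes were higher) and 0 lower (35.6% of all tested genes). In 37 the doxycycline values then lay above both remaining controls, where 15.9% of all tested genes did, and in 0 below both, where 53.0% did. The 12 genes that did not pass were LHCB2.1, LHCB2.2, PSBO1, PSBS, PSAD1, PSAE1, PSAG, PSAH1, PSAH2, PSAL, PETE2 and FD2. With control 1 as the only control, a fit in which limma assumes that the lone library varies like the doxycycline libraries, 3 genes were called higher (6.78% of all tested genes) and 2 lower (4.75% of all tested genes). The higher genes were LHCB6, PSAN and PETC, and the lower genes were LHCB1.4 and PSAG. Out of 41, both counts lie near the shares of all tested genes. The fits with and without control 1 use the same 3 doxycycline libraries, so a call in both is not repeated support.

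**Figure D3:**
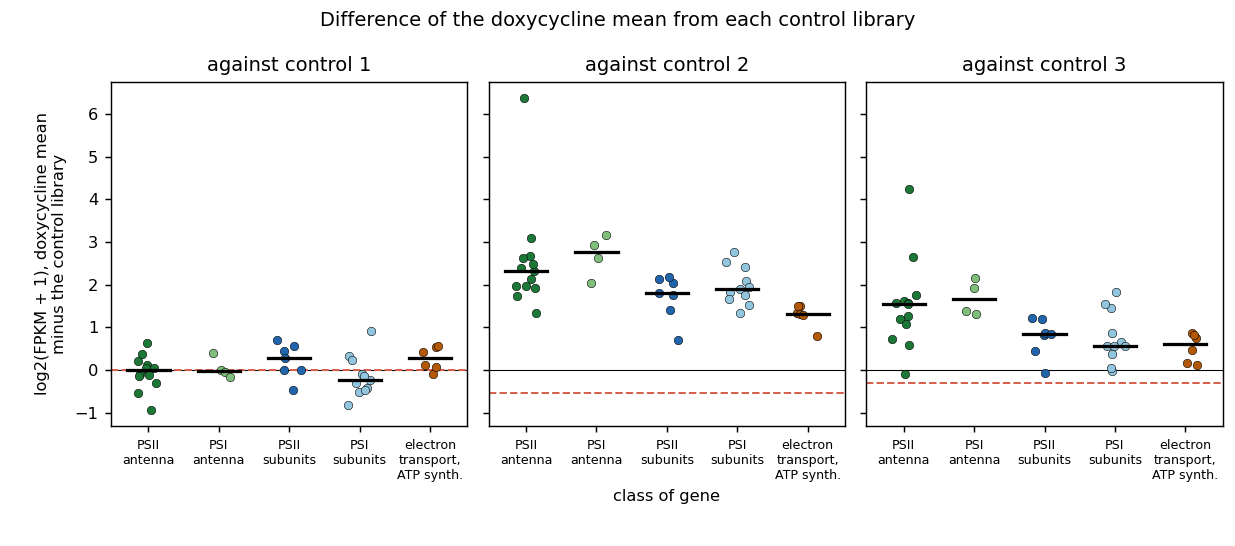
Difference of the doxycycline mean from each control library on the log2(FPKM + 1) scale (y) by class (x), with 1 point per gene, a bar at the class median and a dashed line at the median of all genes. The class medians run from -0.24 to 0.28 against control 1, from 1.32 to 2.78 against control 2 and from 0.57 to 1.66 against control 3.

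LHCB1 and LHCB2 encode the proteins of LHCII, the trimeric major antenna of photosystem II. LHCB1 has 5 copies and LHCB2 has 3. The highest control exceeded the lowest 160.6-fold in LHCB1.4, 5.5-fold to 8.1-fold in the other LHCB1 copies and 2.7-fold to 4.0-fold in LHCB2 (on FPKM + 1), and the 100 bases before the annotated transcription start of each of the 8 genes are shown so that the upstream sequences of copies with such unlike spreads can be compared. The sequences come from the RefSeq annotation of assembly TAIR10.1, are written 5′ to 3′ on the strand of the gene, and carry in capitals any match to AAAAATCT (a site bound by the clock protein CCA1), the letters CCAATC (which hold the core bound by NF-Y factors) or the G-box CACGTG. The windows are chr1:10475970-10476069 (minus strand) for LHCB1.1, chr1:10473503-10473602 (minus) for LHCB1.2, chr1:10477785-10477884 (plus) for LHCB1.3, chr2:14524507-14524606 (plus) for LHCB1.4 and chr2:14523569-14523668 (minus) for LHCB1.5. Those of LHCB2 are chr2:1824481-1824580 (minus) for LHCB2.1, chr2:1800473-1800572 (minus) for LHCB2.2 and chr3:10255806-10255905 (plus) for LHCB2.3, and 0 of the 8 windows overlap an annotated exon.
LHCB1.1: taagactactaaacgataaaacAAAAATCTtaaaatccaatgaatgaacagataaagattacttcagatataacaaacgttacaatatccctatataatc
LHCB1.2: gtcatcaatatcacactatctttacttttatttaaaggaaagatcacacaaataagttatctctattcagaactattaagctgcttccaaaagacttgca
LHCB1.3: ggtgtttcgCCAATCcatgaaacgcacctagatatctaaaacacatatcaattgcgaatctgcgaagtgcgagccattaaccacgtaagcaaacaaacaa
LHCB1.4: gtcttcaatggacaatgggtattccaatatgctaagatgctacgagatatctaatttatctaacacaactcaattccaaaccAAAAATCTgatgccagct
LHCB1.5: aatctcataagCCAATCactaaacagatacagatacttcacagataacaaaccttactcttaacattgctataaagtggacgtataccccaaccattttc
LHCB2.1: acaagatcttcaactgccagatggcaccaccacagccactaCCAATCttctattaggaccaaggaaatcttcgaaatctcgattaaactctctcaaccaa
LHCB2.2: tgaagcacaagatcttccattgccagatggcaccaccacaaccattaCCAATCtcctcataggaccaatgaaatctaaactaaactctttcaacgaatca
LHCB2.3: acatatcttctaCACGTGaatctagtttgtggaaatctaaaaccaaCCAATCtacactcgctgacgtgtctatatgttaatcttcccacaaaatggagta

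LHCB1.4 (AT2G34430) had 4676, 4964 and 6381 FPKM in doxycycline libraries 1 to 3, against 10118, 62.0 and 277 FPKM in controls 1 to 3. The doxycycline libraries lay below control 1 and above controls 2 and 3. Its log2 difference of 3.24 (SE 1.67, limma adjusted p = 0.247) was the highest of the 41 and was not called. Without control 1 it was called higher, at 5.32 (SE 0.602, limma adjusted p = 0.00216), and against control 1 alone it was called lower, at -0.94 (SE 0.207, limma adjusted p = 0.0421). The sign of this gene thus turns with the control library used. LHCB1.5 (AT2G34420), its divergently transcribed neighbour on chromosome 2, had 15253, 15585 and 16474 FPKM with doxycycline, against 22821, 2810.4 and 5264 FPKM in the controls, again between control 1 and the other controls.

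The 3 copies on chromosome 1 form a cluster of near-identical genes. LHCB1.2 (AT1G29910) had 11272, 11722 and 11569 FPKM with doxycycline, against 8779.9, 1343 and 1831 FPKM in the controls, with no overlap between the groups. Its log2 difference was 2.05 (SE 0.784, limma adjusted p = 0.174). LHCB1.1 (AT1G29920) likewise lay above every control on the deposited scale, at 9085, 9259.8 and 9106 FPKM with doxycycline, against 7906, 1433 and 2989 FPKM in the controls. LHCB1.3 (AT1G29930) was the most abundant of the 41 transcripts in the doxycycline libraries, at 30168, 30853 and 33266 FPKM, against 38904, 6239 and 9304 FPKM in the controls, and here control 1 was the highest library.

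As a share of all LHCB1 FPKM, LHCB1.4 made up 6.64%, 6.86% and 8.31% with doxycycline, against 11.4%, 0.521% and 1.41% in the controls. It was the copy whose share moved furthest in relative terms. LHCB1.2 made up 16.0%, 16.2% and 15.1% with doxycycline, against 9.92%, 11.3% and 9.31% in the controls, so that its share lay above every control, including control 1. LHCB1.3 held 42.6% to 43.3% with doxycycline, against 43.9%, 52.5% and 47.3% in the controls, which placed it below every control. LHCB1.5 also lay below every control, at 21.6%, 21.5% and 21.5% with doxycycline, against 25.8%, 23.6% and 26.8%. Coding sequences of the 3 chromosome 1 copies are 95.6% to 96.4% identical, LHCB1.4 and LHCB1.5 are 92.5% identical, and 1.51% to 4.44% of the 100-base stretches of each LHCB1 transcript recur in another annotated transcript. How the deposited values divide reads between such copies is not given in the sources used here, and shares between copies are uncertain to that extent.

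In LHCB2 the controls lay closer together. LHCB2.1 (AT2G05100) had the lowest log2 difference of the photosystem II antenna, at 0.45 (SE 0.466, limma adjusted p = 0.529), with 2351, 2630.0 and 2102 FPKM with doxycycline, against 2175, 934 and 2508 FPKM in the controls. The groups overlapped, and control 3 stood within the doxycycline range. LHCB2.2 (AT2G05070), which shares 96.6% of its coding bases with LHCB2.1, had 2436, 2749 and 2333 FPKM with doxycycline, against 2486, 636 and 1659.9 FPKM in the controls. LHCB2.3 (AT3G27690) had 951, 928 and 982 FPKM with doxycycline, against 1010.2, 251 and 571 FPKM in the controls. Its value is uncertain, since 36.3% of the 100-base stretches of its transcript also lie in the overlapping gene AT3G27700 and strand handling is not given.

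**Figure D4:**
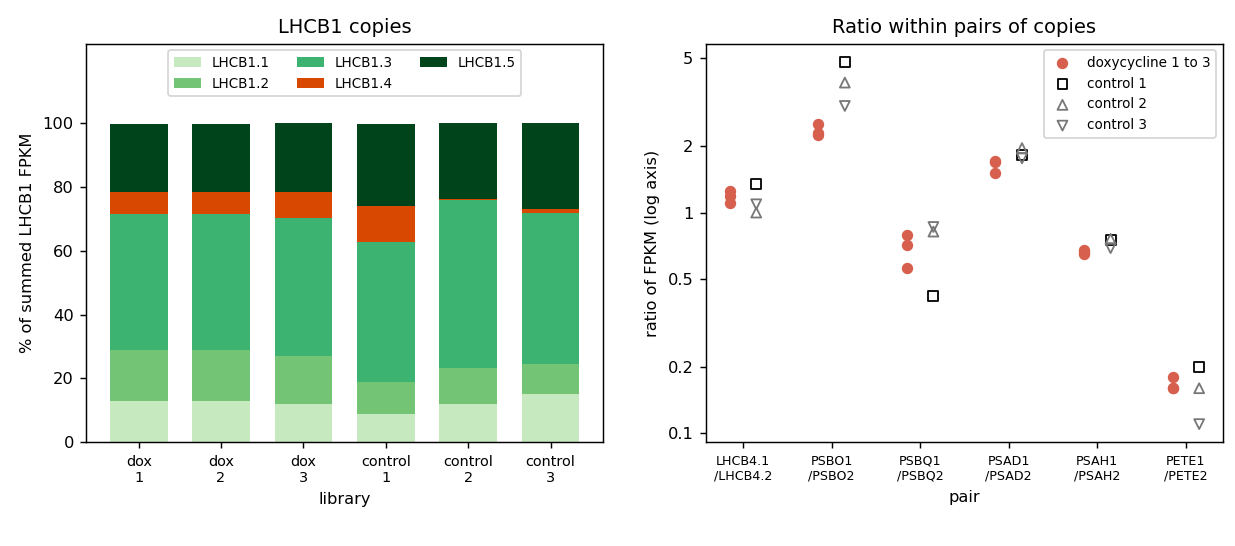
Left, percentage of the summed LHCB1 FPKM (y) held by each of the 5 copies in each library (x). Right, ratio of FPKM (y, log axis) of the first to the second gene of 6 pairs of copies (x), with 1 symbol per library. LHCB1.4 shrinks to 0.521% and 1.41% in controls 2 and 3, and the ratio PSBO1 to PSBO2 is lower in each doxycycline library than in each control.

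The other photosystem II antenna genes encode LHCB3, a minor partner in LHCII trimers, and the monomeric proteins CP29 (LHCB4), CP26 (LHCB5) and CP24 (LHCB6), which join LHCII to the core. LHCB6 (AT1G15820) stood out among them, at 4620.5, 4639.6 and 4191 FPKM with doxycycline, against 2869, 852 and 1537 FPKM in the controls. It lay above every control and was called higher without control 1 (log2 difference 1.97, SE 0.340, limma adjusted p = 0.00674). Its log2 difference from control 1 alone was 0.64. With all 6 libraries its difference of 1.53 (SE 0.518) had an adjusted p of 0.154 with limma and was not called. LHCB3 (AT5G54270) had 5529, 6364 and 6197 FPKM with doxycycline, against 5821, 981 and 2027 FPKM in the controls. LHCB4.1 (AT5G01530) had 4244, 4260.1 and 4215 FPKM with doxycycline, against 4649.6, 1082 and 1840.4 FPKM in the controls. LHCB4.2 (AT3G08940) had 3402, 3589 and 3840.4 FPKM with doxycycline, against 3455, 1085 and 1694 FPKM in the controls. In these 3 genes, as in LHCB5 (AT4G10340), whose log2 difference was 1.1 (SE 0.629), the doxycycline libraries stood at or near the level of control 1 and above controls 2 and 3.

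The photosystem I antenna is a belt of the proteins LHCA1 to LHCA4 on one side of the reaction centre. LHCA1 (AT3G54890) had 8619.8, 8672 and 9453 FPKM with doxycycline, against 8938, 994 and 1992 FPKM in the controls, and the groups overlapped through control 1. LHCA4 (AT3G47470), the partner of LHCA1 in the belt and the carrier of its most red-shifted chlorophylls, had 10173, 10419 and 11303 FPKM with doxycycline, against 8062, 1391 and 2787 FPKM in the controls. It lay above all 3 controls (log2 difference 1.75, SE 0.727, limma adjusted p = 0.191). LHCA2 (AT3G61470) had 5336, 5228 and 5358 FPKM with doxycycline, against 5472, 1283 and 2141 FPKM in the controls. LHCA3 (AT1G61520) had 4399, 4390.0 and 4762 FPKM with doxycycline, against 5079.8, 731 and 1728 FPKM in the controls. For LHCA2 and LHCA3 control 1 was the highest of the 6 libraries. Without control 1 all 4 LHCA genes were called higher, by 1.68 to 2.66 on the log2 scale (limma adjusted p = 0.00437 to 0.0112), and against control 1 alone 0 of the 4 were called, with differences of -0.17 to 0.40.

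Of the 7 photosystem II genes, PSBO, PSBP and PSBQ encode the extrinsic proteins that shield the manganese cluster where water is split. PSBO1 (AT5G66570), the major form of the manganese-stabilising protein, had 3995, 4231 and 3749 FPKM with doxycycline, against 5518, 1497 and 2907 FPKM in the controls. PSBO2 (AT3G50820), the minor form, had 1743, 1891 and 1479 FPKM with doxycycline, against 1144, 386 and 957 FPKM in the controls. The forms thus differed: PSBO1 lay below control 1 in every doxycycline library, and PSBO2 lay above every control (log2 difference 1.17, SE 0.456, limma adjusted p = 0.177). PSBQ1 (AT4G21280) also lay above every control, at 1481, 1664 and 1291 FPKM with doxycycline, against 906, 434 and 815 FPKM in the controls. PSBQ2 (AT4G05180) had 2092, 2109.9 and 2315 FPKM with doxycycline, against 2157, 526 and 945 FPKM in the controls, and PSBP1 (AT1G06680) matched control 1 closely, with a difference of 0.00 on the log2 scale from control 1, 1.8 from control 2 and 0.88 from control 3.

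PSBR (AT1G79040), a small protein that helps the extrinsic proteins to bind, was the most abundant photosystem transcript. It had 16144, 15303 and 14715 FPKM with doxycycline, against 11273, 3388 and 6585 FPKM in the controls, and so lay above every control on the deposited scale (log2 difference 1.28, SE 0.691, limma adjusted p = 0.262). PSBS (AT1G44575) encodes the sensor of lumen acidity that switches on the dissipation of excess light as heat. It had the lowest log2 difference of the class, 0.30 (SE 0.291, 95% interval -0.38 to 0.99), with 667, 728 and 532 FPKM with doxycycline, against 525, 391 and 667 FPKM in the controls. Its groups overlapped, and it was not called even without control 1 (limma adjusted p = 0.390).

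Among the 11 photosystem I genes, PSAN and PSAO showed the highest log2 differences. PSAN (AT5G64040), a lumenal subunit near the site where plastocyanin docks, had 4412, 4362 and 4159 FPKM with doxycycline, against 2274, 739 and 1475 FPKM in the controls. All doxycycline values were above all control values, and the difference of 1.67 (SE 0.491) had the lowest adjusted p of the 41 genes, 0.139 with limma. It was called higher without control 1 (2.04, SE 0.361, limma adjusted p = 0.00713), and its log2 difference from control 1 alone was 0.92. PSAO (AT1G08380), a subunit on the side where LHCII can dock, had 5125, 5121 and 4572 FPKM with doxycycline, against 4181, 721 and 1398 FPKM in the controls. PSAK (AT1G30380), which holds the antenna belt at the LHCA3 end, was the other gene of this class without overlap, at 4196, 3832 and 3881 FPKM with doxycycline, against 3184, 739.6 and 1449 FPKM in the controls.

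The genes for the stromal docking ridge, where ferredoxin binds, lay between control 1 and the other controls. PSAD1 (AT4G02770) had 2669, 2371 and 2488 FPKM with doxycycline, against 2964, 704 and 1696 FPKM in the controls. PSAD2 (AT1G03130) had 1551, 1574 and 1476 FPKM with doxycycline, against 1618, 359 and 964 FPKM in the controls. Both lay below control 1 and above the other controls in every doxycycline library, and so did PSAE1 (AT4G28750), the other ridge subunit, at 2862 to 3085 FPKM with doxycycline, against 4284, 939 and 2291 FPKM in the controls. PSAF (AT1G31330), which takes part in plastocyanin docking, had a log2 difference of -0.42 from control 1, 1.96 from control 2 and 0.88 from control 3.

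PSAG, PSAH and PSAL sit at the rim of photosystem I, PSAG next to the antenna belt and PSAH and PSAL where LHCII binds during state transitions. PSAG (AT1G55670) had 2435, 2435 and 2438 FPKM with doxycycline, against 4297, 651 and 1655 FPKM in the controls, and was called lower against control 1 alone (-0.82, SE 0.124, limma adjusted p = 0.0213). PSAH1 (AT3G16140) had 688, 775 and 580.4 FPKM with doxycycline, against 938, 267 and 682 FPKM in the controls. PSAH2 (AT1G52230) had 1039, 1132 and 899 FPKM with doxycycline, against 1247, 352 and 982 FPKM in the controls. Both PSAH genes had the lowest differences of the class (0.28, SE 0.472, and 0.43, SE 0.491) and overlapped with control 3, and PSAL (AT4G12800) had 0.73 (SE 0.531). Transcripts of PSAE1, PSAG, PSAH1 and PSAH2 share 24.0%, 55.8%, 47.0% and 12.4% of their 100-base stretches with an overlapping neighbouring gene, which makes their values uncertain where strand is not given.

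Electron transport and ATP synthesis were represented by 6 genes, which together held 0.956%, 0.942% and 0.824% of the summed FPKM of all genes with doxycycline, against 0.786%, 0.440% and 0.761% in the controls. PETC (AT4G03280), the Rieske iron-sulfur protein of the cytochrome b6f complex, had 1478, 1406 and 1332 FPKM with doxycycline, against 962, 496 and 767 FPKM in the controls. It lay above every control, with a log2 difference of 0.97 (SE 0.331, limma adjusted p = 0.154). It was called higher without control 1 (1.19, SE 0.256, limma adjusted p = 0.0131), and its log2 difference from control 1 alone was 0.54. ATPC1 (AT4G04640), the gamma subunit that turns inside ATP synthase, had 815, 802 and 709 FPKM with doxycycline, against 577, 274 and 435 FPKM in the controls. ATPD (AT4G09650), the delta subunit of the same enzyme, had 670.2, 683 and 517 FPKM with doxycycline, against 419, 252 and 447 FPKM in the controls, and so the groups of both subunits were apart.

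The small electron carriers overlapped between groups. PETE2 (AT1G20340), the major plastocyanin gene, had 2765, 2656 and 2278 FPKM with doxycycline, against 2329.8, 1029 and 2265 FPKM in the controls. PETE1 (AT1G76100), the minor one and the lowest of the 41 transcripts in the doxycycline libraries, had 450.1, 422 and 415 FPKM, against 455, 169 and 254 FPKM in the controls. FD2 (AT1G60950), the major leaf ferredoxin, had 1627, 1642 and 1455 FPKM with doxycycline, against 1500.0, 910.4 and 1442 FPKM in the controls. Its log2 difference of 0.33 (SE 0.333) was the lowest of the class, and its controls spanned 1.6-fold on FPKM + 1, the narrowest spread between controls among the 41 genes.

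Antenna transcripts were compared with the photosystem and electron transport transcripts of the same libraries. The median log2 difference was 1.26 for the 17 antenna genes, 0.85 for the 18 photosystem genes and 0.72 for the 6 electron transport and ATP synthase genes. This order came from controls 2 and 3: against control 2 the medians were 2.39, 1.87 and 1.32, and against control 3 they were 1.54, 0.75 and 0.61, while against control 1 they were 0.00, -0.04 and 0.28. The doxycycline mean exceeded control 2 more than 2-fold in 17 of 17 antenna, 17 of 18 photosystem and 5 of 6 electron transport genes, where 6.97% of all tested genes did. It exceeded control 3 more than 2-fold in 14, 5 and 0 of them, where 6% of all tested genes did, and control 1 in 0 of the 41, where 2.36% did.

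Within a library, the mean log2 value of the antenna genes exceeded that of the photosystem genes by 1.13, 1.16 and 1.31 with doxycycline, against 1.23, 0.50 and 0.41 in the controls. The means were 1.2 ± 0.1 with doxycycline and 0.71 ± 0.450 in the controls (SD, n = 3 each), and control 1 lay inside the doxycycline range. Set against electron transport, the antenna genes were higher by 2.35, 2.44 and 2.64 with doxycycline, against 2.78, 1.19 and 1.45 in the controls, so that control 1 lay above and the other controls below the doxycycline libraries. Antenna genes made up 64.7%, 65.8% and 68.0% of the summed FPKM of the 41 genes with doxycycline, against 69.1%, 56.3% and 53.3% in the controls. Electron transport and ATP synthase genes made up 3.97%, 3.82% and 3.33% with doxycycline, against 2.99%, 7.57% and 7.08%.

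Scores for the balance between the photosystems differed less between the groups. The mean log2 value of the photosystem II antenna genes minus that of the photosystem I antenna genes was -0.37, -0.30 and -0.40 with doxycycline, against -0.26, -0.21 and -0.18 in the controls. The groups did not overlap, and their means differed by -0.14, at -0.36 ± 0.0483 with doxycycline and -0.22 ± 0.0420 in the controls (SD, n = 3 each). Each gene weighs equally in these means. LHCB1.4, at 10118, 62.0 and 277 FPKM in controls 1 to 3, therefore pulls the photosystem II antenna down in controls 2 and 3. The lack of overlap and the narrow control spread thus cannot be read as a trait of the whole class. LHCB1.4 enters the antenna means given before in the same way. Among the photosystem subunits, photosystem II minus photosystem I gave 0.09, 0.16 and 0.07 with doxycycline, against -0.25, 0.37 and 0.11 in the controls, with overlap between the groups. These are descriptions of chosen lists and carry no test.

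Ratios between copies do not depend on the total of a library, and 6 pairs were compared. With 3 libraries against 3 the smallest two-sided p that an exact permutation test can give is 0.1, so 0 of the 6 comparisons could pass 0.05. The ratio PSBO1 to PSBO2 was 2.29, 2.24 and 2.53 with doxycycline, against 4.82, 3.88 and 3.04 in the controls, a log2 difference of -0.71 with groups apart (exact permutation p = 0.1, adjusted over 6 pairs 0.2). PSAD1 to PSAD2 was 1.72, 1.51 and 1.69 with doxycycline, against 1.83, 1.96 and 1.76 in the controls, and PSAH1 to PSAH2 was 0.66, 0.68 and 0.65 with doxycycline, against 0.75, 0.76 and 0.69. Both were also apart, by -0.18 and -0.15 on the log2 scale, with the same exact permutation p-values of 0.1 (adjusted 0.2). The PSAH ratio shares the doubt over the overlapping genes given above. The ratios of LHCB4.1 to LHCB4.2, PSBQ1 to PSBQ2 and PETE1 to PETE2 overlapped between groups, with log2 differences of 0.05, 0.02 and 0.13 (exact permutation p = 0.700, 1.00 and 0.900).

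Short motifs were counted on both strands of the 250 bases before the annotated start of each of the 41 genes and of 27443 protein-coding genes. CCAATC occurred in 14 of the 41 genes (34.1%), against 10.2% of all genes, and it was unevenly spread, with 10 of 17 antenna genes (58.8%), 1 of 18 photosystem genes (5.56%) and 3 of 6 electron transport and ATP synthase genes. Of the windows printed above, those of LHCB1.3, LHCB1.5 and all LHCB2 copies carry it. The G-box CACGTG was found in 8 of the 41 (19.5%, against 6.49% of all genes), among them LHCB2.3 and PSBQ1, and the I-box GATAAG in 11 (26.8%, against 12.3%). AAAAATCT was found in 5 of the 41 (12.2%, against 6.69%), namely LHCB1.1, LHCB1.4, LHCA4, PSAN and PSAO, and the evening element AAAATATCT in 1 (2.44%, against 2.36%), ATPC1. None of the 5 motifs can match inside another. Unlike the windows printed above, some of the 41 overlap exons of a neighbouring gene, among them those of PSBQ1, PSAN and PSAO. Such overlap was not looked up for all genes. These are counts of letters in a window and carry no test.

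Genes around the 41 were given from lists of the same pathway. Of 26 other nuclear thylakoid genes 22 had a positive log2 difference, where 5755 of the 19035 tested genes did, and their median was 0.48. With limma and all controls 0 were called (7 at an unadjusted p under 0.05, as 4876 of the 19035 tested genes were). Above every control lay 8 (30.8%, where 9.59% of all tested genes did), and 1, PSBP2, lay below (25.7% of all tested genes). Without control 1, limma called 11 of the 26 higher (9.77% of all tested genes) and 2 lower (35.6%). PSB28 (AT4G28660), which takes part in photosystem II assembly, had 203, 206 and 134 FPKM with doxycycline, against 80.9, 44.0 and 86.7 FPKM in the controls (log2 difference 1.38, SE 0.317, limma adjusted p = 0.128). The rare antenna proteins LHCA5 and LHCA6, which link photosystem I to the NDH complex, gave 0.66 (SE 0.211) and 0.77 (SE 0.240), also without overlap. All 5 genes of the pathway that carries antenna proteins to the thylakoid had positive differences, as 5755 of the 19035 tested genes had. Of these, 3 lay above every control, where 9.59% of all tested genes did. Without control 1, limma called all 5 higher, where 9.77% of all tested genes were. CPFTSY (AT2G45770), the receptor of that pathway, had 49.7, 49.0 and 43.4 FPKM with doxycycline, against 26.2, 20.5 and 20 FPKM in the controls, and all 3 controls stood close together here (1.06, SE 0.180, limma adjusted p = 0.121). It was called higher against control 1 alone (0.83, SE 0.133, limma adjusted p = 0.0238). LTD, which hands antenna proteins to that pathway, and the insertase ALB3 gave 0.72 (SE 0.285) and 0.84 (SE 0.336) with all controls.

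Values for the Rubisco small subunit, also nuclear-encoded, are given beside them. The 4 RBCS genes summed to 18719, 20012 and 14092 FPKM with doxycycline, against 22310, 10598 and 19997 FPKM in the controls, and their median log2 difference was -0.14. The most abundant copies had control 1 highest and control 2 lowest among the controls, RBCS1A at 12273, 13338 and 9318 FPKM with doxycycline, against 14208, 6793 and 11535 FPKM, and RBCS3B at 5006, 5197 and 3647 FPKM, against 5694, 2022 and 5031 FPKM. RBCS1B (AT5G38430) instead had control 1 lowest among the controls, at 439.9, 429.8 and 219 FPKM with doxycycline, against 259.9, 576 and 677 FPKM. RBCS2B (AT5G38420) lay below every control, at 999, 1047 and 908 FPKM with doxycycline, against 2148, 1207 and 2754 FPKM in the controls (-0.97, SE 0.388, limma adjusted p = 0.182). Plastid-encoded partners of the 41, 11 genes that include the reaction centre genes psaA and psaB, stood at low FPKM. They summed to 242, 181 and 116 FPKM with doxycycline, against 157, 952 and 88.0 FPKM in the controls, with control 2 the highest. Of these sums psbA alone held 174, 127 and 71.5 FPKM with doxycycline, against 86.1, 542 and 35.0 FPKM. Of the 11 genes 10 had a negative log2 difference, as 13280 of the 19035 tested genes had, and their median was -0.86. For atpB, the beta subunit of ATP synthase, the values were 6.51, 9.24 and 5.80 FPKM with doxycycline, against 10.2, 27.8 and 13.8 FPKM, and for psaA they were 2.75, 2.19 and 1.18 FPKM, against 5.52, 45.6 and 2.91 FPKM. How messenger RNA was selected is not given in the sources used here, and plastid transcripts are mostly not polyadenylated.

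**Figure D5:**
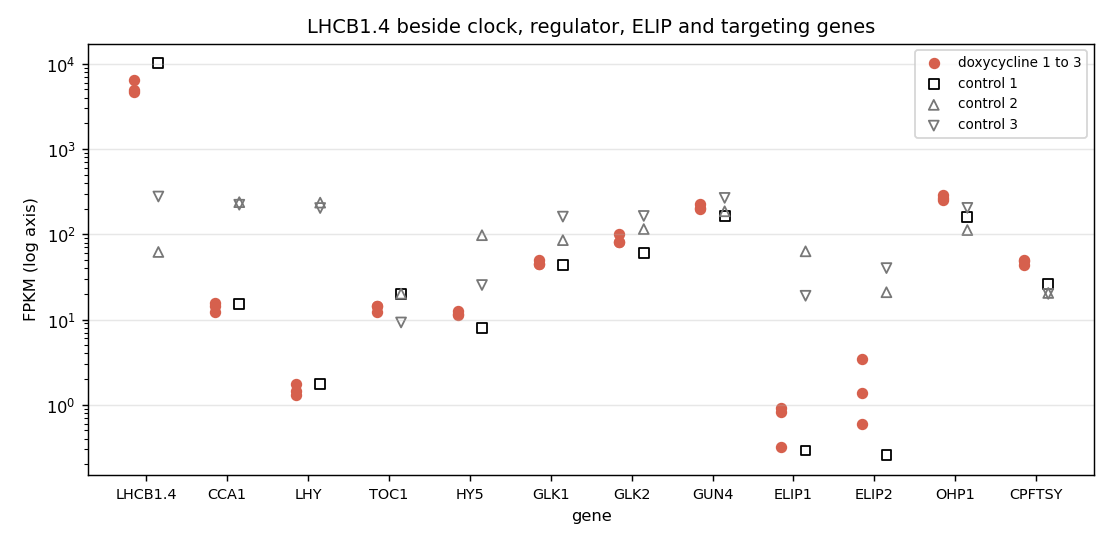
FPKM on a log axis (y) of LHCB1.4 and 11 clock, regulator, light-induced and targeting genes (x), with filled circles for the doxycycline libraries and open symbols for each control. CCA1 and LHY stand at 1.32 to 15.5 FPKM in the doxycycline libraries and control 1 and at 203 to 238 FPKM in controls 2 and 3, the reverse of LHCB1.4.

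Some clock and light genes stood apart in controls 2 and 3, where the 41 genes were low, and others did not. CCA1 (AT2G46830), a morning clock factor known to bind antenna promoters, had 15.5, 14.6 and 12.2 FPKM with doxycycline, against 15.1, 238 and 222 FPKM in the controls. Its partner LHY (AT1G01060) had 1.46, 1.75 and 1.32 FPKM with doxycycline, against 1.76, 235 and 203 FPKM in the controls. TOC1 (AT5G61380), an evening clock factor, had 12.3, 14.6 and 14.6 FPKM with doxycycline, against 19.9, 20.1 and 9.24 FPKM in the controls. Controls 2 and 3 thus stood apart in both morning genes, and control 1 did not, while TOC1 overlapped. Of the 9 clock genes 0 were called with limma and all controls (3 at an unadjusted p under 0.05). Above every control lay 1, LUX (9.59% of all tested genes did), and below lay 1, LHY (25.7%). Without control 1, limma called 3 of the 9 higher (9.77% of all tested genes) and 3 lower (35.6%).

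The early light-induced genes ELIP1 and ELIP2, which encode chlorophyll-binding proteins that build up in strong light, were also high in controls 2 and 3. ELIP1 (AT3G22840) had 0.815, 0.915 and 0.322 FPKM with doxycycline, against 0.291, 63.1 and 19 FPKM in the controls, and ELIP2 (AT4G14690) had 1.37, 3.48 and 0.588 FPKM, against 0.255, 20.9 and 40.1 FPKM. OHP1 (AT5G02120), a related one-helix protein needed for photosystem II assembly, lay instead above every control, at 267, 291 and 249.9 FPKM with doxycycline, against 158, 112 and 204 FPKM. HY5 (AT5G11260), a light-signalling factor, had 12.5, 11.6 and 11.4 FPKM with doxycycline, against 7.92, 97.5 and 25.4 FPKM in the controls. GLK1 (AT2G20570) and GLK2 (AT5G44190) are activators of antenna genes and were not high where those were high. GLK1 had 45.3, 49.8 and 44.6 FPKM with doxycycline, against 43.7, 85.3 and 161 FPKM, and GLK2 had 80.7, 99.7 and 81.4 FPKM, against 59.6, 115 and 164 FPKM. GUN4 (AT3G59400), a chlorophyll synthesis cofactor, overlapped between groups, with 203, 229 and 198 FPKM with doxycycline, against 164, 186 and 267 FPKM in the controls. Of 15 regulator genes 14 were tested, and 0 were called with limma and all controls (4 at an unadjusted p under 0.05). Above every control lay 0, where 9.59% of all tested genes did. Below lay 4, PIF3, GNC, GNL and PHYB, where 25.7% of all tested genes did. Without control 1, limma called 1 regulator higher (9.77% of all tested genes) and 7 lower (35.6%).

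Root marker sums also differed between controls. The 10 root markers summed to 734 to 818 FPKM with doxycycline, against 552 in control 1 and 1617 and 1602 in controls 2 and 3, most of it from the root beta-glucosidase gene PYK10 (754, 715 and 794 FPKM with doxycycline, against 544, 1592 and 1551 FPKM). The other 9 summed to 18.7, 18.5 and 24.1 FPKM with doxycycline, against 8.14, 24.7 and 50.9 FPKM, and they differed among themselves. TIP2;3, for a root aquaporin, had 10.3, 8.42 and 10.7 FPKM with doxycycline, against 1.96, 2.03 and 9.21 FPKM, and the root hair gene PRP3 had 0.450, 0.689 and 1.58 FPKM, against 2.23, 0.862 and 14.9 FPKM. The 3 shoot epidermis markers summed to 255 to 291 FPKM with doxycycline and to 159 to 236 FPKM in the controls, the 3 guard cell markers to 26.5 to 27.5 and 21.1 to 44.3 FPKM, and the 4 vascular markers to 49.6 to 54.8 and 49.7 to 81.4 FPKM. The part of the clock, light and root transcripts in the difference of the 41 genes from controls 2 and 3 was not tested.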

How the data were processed

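Per the labels' protocols, TRIzol served for extraction of total RNA and a VAHTS Universal V6 kit for the libraries. The authors deposited 1 table of FPKM values with 1 column per library. Its header names no unit, which was read from the values: decimals, column sums of 712328 to 816681, and lowest values that fall with transcript length. The submitters' processing notes name TopHat2 2.1.0, Cufflinks 2.2.1 and TAIR10, with no role or order. The sources used here say nothing of strand.

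The members and gene lists were chosen with earlier results of these data known, so counts over them are descriptions. Genes whose mean reached 1 FPKM were compared on the log2(FPKM + 1) scale with limma 3.58.1 in R 4.3.3 (moderated variances with a trend, two-sided, Benjamini-Hochberg over 19035 genes, threshold 0.05). Fold changes on this scale understate low genes, and FPKM is relative, so abundant genes that move shift all others. Ratios of copies used an exact permutation test over libraries.

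For depth, the value of 1 fragment was sought in the low FPKM values. Only 50.2% to 62.3% of low values were whole fragments within 0.08, where chance gives 16.0%, so no count test was run and depth is approximate. Same-numbered libraries deviated from their group means with correlations of -0.002, -0.014 and -0.137, and the main fit did not pair them. The wide spread between the controls enters these deviations, so the correlations cannot show whether libraries were paired.

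Named genes were, in each class, the 2 with the highest and the 2 with the lowest difference, both copies of 6 pairs, fixed regulator and clock genes, and up to 3 genes of each other list with the lowest p. PSBP2, LUX, PIF3, GNC, GNL, PHYB and other genes named for a count or in passing were chosen after their values were seen.

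Promoter windows, transcript models and coding sequences came from RefSeq for TAIR10.1, whose nuclear chromosomes were taken to be those of TAIR10, with Python 3.11.15, pandas 2.3.3 and Biopython 1.88.

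Alternatives were quantile normalization, median-of-ratios scaling, robust variances, a replicate block, other pseudocounts (0.1, 0.01), no filter or one at a mean of 5 FPKM, leaving out each library, control 1 as the only control and, added after seeing the data, scaling to the sum of all genes other than the 41.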

Additional observations from a re-analysis of the deposited data

How the results depend on the processing

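Pseudocounts, filters, robust variances and scalings left the counts of called genes and called members at 0. Of 217 values recomputed over all settings, 193 counted as unchanged, 12 moved and 12 changed sign. Some of the 193 could hardly change. The 41 genes lie far above the filters and pseudocounts, so those settings returned the same class medians. The tally is thus no measure of stability. A count was unchanged within a set fold margin, and a ratio of copies if its sign held. Class medians and the antenna minus photosystem value were unchanged if they shifted by less than the pooled SD between libraries. That SD includes the wide spread of the controls. The photosystem II antenna median thus counted as unchanged at 0.50 after quantile normalization, against 1.18 as deposited. A fit with the replicate number as a block also called 0 genes and 0 of the 41. Quantile normalization placed 2 of the 41 below every control, where 3137 of 19008 tested genes lay below. It gave a median of 0.34 for the photosystem II subunits. The median of all genes was -0.29 as deposited, 0.01 after median-of-ratios scaling, 0.02 after quantile normalization and -0.24 after scaling to all other genes. The median of the 41 was 0.97, 1.3, 0.50 and 1.03 in that order.

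Leaving out 1 library at a time gave 0 to 8637 called genes (8637 without control 1, 2 without control 3), 0 to 29 called members, 13 to 37 members above and 0 to 0 below every control. Medians ran from 0.58 to 1.97 for photosystem II antenna, 0.86 to 2.22 for photosystem I antenna, 0.60 to 1.34 for photosystem II subunits, 0.22 to 1.23 for photosystem I subunits, 0.42 to 0.96 for electron transport, 0.63 to 2.00 for all antenna and 0.26 to 1.32 for all photosystem genes. Antenna minus photosystem genes ran from 0.33 to 0.75. Log2 differences of the ratios ran from -0.04 to 0.18 for LHCB4.1 over LHCB4.2, -0.88 to -0.54 for PSBO1 over PSBO2, -0.31 to 0.20 for PSBQ1 over PSBQ2, -0.21 to -0.12 for PSAD1 over PSAD2, -0.19 to -0.12 for PSAH1 over PSAH2 and -0.10 to 0.30 for PETE1 over PETE2.

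With control 1 as the only control, 2194 genes and 5 members were called and 18 members lay below it. In 14 members (34.1%) every doxycycline library lay above control 1, where 37.0% of all tested genes did. The 18 members below it made up 43.9%, where 36.9% of all tested genes lay below. Both shares lie near those of all genes. Medians in this setting were 0.01 and -0.02 for photosystem II and I antenna, and 0.28 and -0.24 for photosystem II and I subunits. They were 0.28 for electron transport, 0.00 for all antenna and -0.04 for all photosystem genes. Antenna minus photosystem genes gave -0.03, LHCB4.1 over LHCB4.2 -0.19 and PETE1 over PETE2 -0.22. The setting itself removes controls 2 and 3, which hold the low values. Depth is known only as an estimate, so no counting error is given.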
